A study of Homo sapiens with 6 samples.

Results

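Granins and prohormone convertases build and process the cargo of dense-core secretory vesicles, and 7 such genes were chosen by name: the granins CHGA, CHGB, SCG2 and SCG3, the granin family member SCG5, and the convertases PCSK1 and PCSK2. They are 7 of the 19974 protein-coding genes placed on chromosomes 1 to 22 and X by the RefSeq gene table. In GRCh38.p14, the build of the files, they lie at chr14:92922664-92935285 (CHGA), chr20:5911510-5925353 (CHGB), chr2:223596940-223602361 (SCG2), chr15:51681503-51721026 (SCG3), chr15:32641710-32697092 (SCG5), chr5:96390333-96433248 (PCSK1) and chr20:17226107-17484578 (PCSK2). Around these genes the positions of peaks of 3 transcription factors were read from 5 CUT&Tag peak lists. The cells were SK-N-BE(2), a long-established human neuroblastoma line in which MYCN is amplified. In CUT&Tag a transposase is brought to the bound protein by an antibody, and it inserts sequencing adapters into the DNA there. The libraries were HAND2 replicate 1, HAND2 replicate 2, MEIS2 replicate 1, MEIS2 replicate 2 and TCF4, each named for the protein its antibody is directed against, and 1 further library was made with a non-specific IgG antibody and has no peak list here. All were made from the same line, and the labels name no treatment and no engineered genetic change. They do not say whether the replicates are separate cultures, and their spread may be technical.

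Granins are acidic proteins that aggregate in the trans-Golgi, help form dense-core vesicles and are released together with catecholamines and peptides. PCSK1 and PCSK2 are serine proteases that cut granins and peptide precursors after paired basic residues inside these vesicles, and SCG5 is the chaperone that PCSK2 needs to mature. Sympathetic neurons, chromaffin cells and the neuroblastomas that arise from their lineage contain such vesicles, and CHGA is a widely used marker of neuroendocrine tumours. HAND2 is a basic helix-loop-helix factor of the sympathetic lineage, TCF4 is an E protein that pairs with other factors of that class, and MEIS2 is a homeodomain factor of the TALE class. Factors of the helix-loop-helix class bind E-boxes, whose letters are CANNTG.

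HAND2 had 30410 peaks in replicate 1 and 33484 in replicate 2, MEIS2 had 9595 and 13871, and TCF4 had 30704. The median pile-up, the number of fragments that cover a peak's summit, was 34 and 41 for the HAND2 libraries, 22 and 13 for the MEIS2 libraries and 60 for TCF4, so the median MEIS2 peak rests on fewer fragments than that of the other lists. MEIS2 replicate 2 stands apart, since all 13876 of its peak identifiers carry the word Flag although the labels give it the same antibody as replicate 1. The median local background under its peaks was 2.08 IgG fragments (control fragments after scaling), against 10.7 in MEIS2 replicate 1. That median is also the lowest background of its list. The MEIS2 libraries may therefore not be replicates of the same assay, which was not tested, and a MEIS2 region of both replicates is only a region found in both lists. For this reason counts of MEIS2 at gene ends are given for both replicates together and for each alone. A region of both replicates is a merged span that holds overlapping peaks of replicates 1 and 2 of a factor, which gave 23304 HAND2 and 2311 MEIS2 regions, whereas TCF4 has 1 library and no replicate check. As a check of the labelled cell type, the catecholamine enzyme genes DBH and TH each had a HAND2 region of both replicates at a gene end, with folds of 13.3 and 14.5 at DBH and 4.71 and 5.78 at TH. Of 10 genes of liver, blood and Schwann cells 1 had one, the B-cell gene CD79A.

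The start regions of the members differed in which libraries placed a peak over them, and the letters of those that the results turn on are shown here. They are the 250 bases before the annotated start, from RefSeq, GRCh38.p14, in which 5 of the 7 members were matched. CHGB and SCG2 were not. Sequences run 5′ to 3′ and are written in the sense of the gene. Capitals mark matches, on either strand, to the E-box CANNTG, to its special forms CATCTG and CAGCTG, to the MEIS core TGACAG, or to the cAMP response element TGACGTCA. The CHGA window lies at chr14:92922900-92923149 on the plus strand, the SCG5 window at chr15:32641460-32641709 on the plus strand and the SCG3 window at chr15:51681253-51681502 on the plus strand. PCSK1 has a pair of starts on the minus strand, and its windows lie at chr5:96432161-96432410 and chr5:96433249-96433498.
CHGA: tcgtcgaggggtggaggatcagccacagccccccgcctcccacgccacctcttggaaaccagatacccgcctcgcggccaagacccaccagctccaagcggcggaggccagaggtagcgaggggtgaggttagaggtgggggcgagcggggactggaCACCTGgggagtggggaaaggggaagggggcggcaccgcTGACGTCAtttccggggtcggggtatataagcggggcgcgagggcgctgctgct
SCG5: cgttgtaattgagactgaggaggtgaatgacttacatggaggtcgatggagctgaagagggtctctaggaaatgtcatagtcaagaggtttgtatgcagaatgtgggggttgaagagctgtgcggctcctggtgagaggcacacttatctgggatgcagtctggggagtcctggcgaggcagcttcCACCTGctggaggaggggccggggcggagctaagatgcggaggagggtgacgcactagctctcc
SCG3: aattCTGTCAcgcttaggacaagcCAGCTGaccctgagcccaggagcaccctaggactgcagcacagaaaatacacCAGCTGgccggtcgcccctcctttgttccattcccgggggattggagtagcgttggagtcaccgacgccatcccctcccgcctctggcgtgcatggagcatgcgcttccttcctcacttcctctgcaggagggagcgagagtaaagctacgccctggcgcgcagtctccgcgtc
PCSK1, start inside the gene: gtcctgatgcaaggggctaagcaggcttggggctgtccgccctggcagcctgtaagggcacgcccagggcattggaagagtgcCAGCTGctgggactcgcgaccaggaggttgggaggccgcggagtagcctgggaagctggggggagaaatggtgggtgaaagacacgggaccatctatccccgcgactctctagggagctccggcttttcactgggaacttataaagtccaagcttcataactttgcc
PCSK1, start at the gene's outer end: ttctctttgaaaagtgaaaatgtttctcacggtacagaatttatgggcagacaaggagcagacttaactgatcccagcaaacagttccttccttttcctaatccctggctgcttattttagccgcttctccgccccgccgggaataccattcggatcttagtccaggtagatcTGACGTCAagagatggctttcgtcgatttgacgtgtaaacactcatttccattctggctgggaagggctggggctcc

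Positions are those of the first base of a match as printed, and the base just before the start is -1. The CHGA window held the E-box CACCTG at -93 and a full cAMP response element at -54. The SCG5 window held the same E-box letters, CACCTG, at -64, and the SCG3 window held CAGCTG at -226 and at -174 with a MEIS core on the other strand at -246. In PCSK1 the window of the inner start held CAGCTG at -167, and the window of the outer start held a cAMP response element at -77 and no E-box. Neither of the windows of PCSK2, at chr20:17225857-17226106 and chr20:17226790-17227039, held any of the letters searched. Of 22132 promoter windows of the same length, 58.1% held CANNTG, 13.7% CAGCTG, 10.2% CATCTG, 12.1% TGACAG and 2.02% TGACGTCA. CATCTG and CAGCTG are forms of CANNTG, so each of their matches is counted under the E-box too. E-box letters are thus common, whereas the cAMP response element of CHGA and PCSK1 is found in few windows. These matches describe letters and are not shown to be bound.

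Peaks of both HAND2 replicates overlapped the CHGA and SCG5 windows, the SCG3 window had a HAND2 peak in replicate 1 alone, and a MEIS2 replicate 1 peak reached the SCG5 window. TCF4 peaks overlapped the CHGA, SCG5 and SCG3 windows and the inner PCSK1 window. The outer PCSK1 window and both PCSK2 windows had no peak in any list. At CHGA the summits lay 259 and 239 bp before the start in HAND2 replicates 1 and 2 and 166 bp before it in TCF4, so each lay further out than the CACCTG match. At SCG5 they lay 76 and 81 bp past the start in the HAND2 replicates, 43 bp past it in TCF4 and 223 bp past it in MEIS2 replicate 1. At SCG3 the HAND2 replicate 1 summit lay 29 bp before the start and the TCF4 summit 40 bp past it.

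Gene ends were searched first, taking as an end peak any peak that overlaps the 1 kb on either side of the lower or the higher coordinate of a gene. HAND2 regions of both replicates reached an end of CHGA, CHGB and SCG5, which is 3 of 7 members, where 19.1% of all protein-coding genes had one. The call at CHGA rests on a partial overlap of the peaks chr14:92922469-92923065 in replicate 1 and chr14:92922545-92924751 in replicate 2, and it was lost when they had to overlap reciprocally by 50%, which left CHGB and SCG5. Taken alone, HAND2 replicate 1 had an end peak at 4 members, SCG3 being the fourth, against 20.6% of all genes, and replicate 2 at the same 3 members as both together, against 27.8% of all genes. TCF4 had an end peak at 5 members, CHGA, CHGB, SCG3, SCG5 and PCSK1, where 53.9% of all genes had one. The 3 members with a HAND2 region were also the members with both HAND2 and TCF4 at an end, against 17.8% of all genes. With 7 genes, neither 3 of 7 for HAND2 nor 5 of 7 for TCF4 is read here as different from the background. When each list was cut to its 5000 peaks of highest −log10 q, no member kept a HAND2 region of both replicates at an end, and CHGA alone kept its TCF4 peak.

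MEIS2 end peaks changed with the replicate. A MEIS2 region of both replicates reached an end of SCG2 alone, 1 of 7 members, where 0.946% of all genes had one. Neither a start nor a strand was matched for SCG2, so whether this end is its start is not known here. Replicate 1 alone had end peaks at CHGA and SCG5, 2 of 7, against 11.5% of all genes, while replicate 2 alone had 1, at SCG2, against 2.18% of all genes. No member had an end peak in each MEIS2 replicate, because at SCG2 it is the replicate 2 peak of the shared region, chr2:223594205-223596466, that comes within 1 kb of the gene. That peak stops 474 bp from the lower-coordinate end, and the replicate 1 peak, chr2:223593798-223594576, stops 2364 bp from it. The call was lost when the replicate peaks had to overlap reciprocally by 50%.

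The strength of an end peak is given by the authors' fold, the summit pile-up over the local background, which describes and ranks peaks within a list and is not compared between lists. Where a range follows a fold, it is the 95% counting interval, the exact Poisson interval of its pile-up over a fixed background. These intervals cover counting error only, and in a bulk library binding in fewer cells and weaker binding in each cell cannot be told apart. In HAND2 replicate 1 the median end fold over the 4115 genes with an end peak was 3.47, and in replicate 2 it was 3.38 over 5552 genes. For TCF4 the median was 5.33 over 10769 genes, and for MEIS2 it was 4.58 over 2304 genes in replicate 1 and 5.62 over 435 genes in replicate 2.

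CHGA, whose product chromogranin A is cut into peptides such as catestatin, had HAND2 end folds of 4.62 (3.56 to 5.91) in replicate 1 and 5.47 (4.39 to 6.74) in replicate 2. They rested on 62 and 86 fragments, and in both lists they lay above the median gene with an end peak. The TCF4 peak there had a fold of 10 (8.67 to 11.6) from 190 fragments, and 16.3% of genes with a TCF4 end peak had a higher one. At the other end of the gene TCF4 had a peak of 9.01-fold, MEIS2 replicate 1 one of 4.25-fold (2.61 to 6.59) from 18 fragments, and HAND2 replicate 2 one of 2.57-fold. No other member had peaks at both of its ends.

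CHGB, which encodes chromogranin B, had weaker HAND2 end peaks of 2.66 (2.00 to 3.47) in replicate 1 and 3.57 (2.79 to 4.50) in replicate 2. Of the genes with an end peak, 74.6% and 44.5% were higher in these lists. Its TCF4 peak, at chr20:5911105-5911864, had a fold of 7.33 (6.21 to 8.59) from 150 fragments. The 3 summits lay within 89 bp of each other, just outside the lower-coordinate end.

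SCG5 had an end fold of 5.35 (4.05 to 6.93) in HAND2 replicate 1, 5.50 (4.27 to 6.98) in replicate 2, 6.34 (4.86 to 8.13) in TCF4 and 5.75 (3.58 to 8.82) in MEIS2 replicate 1. The lower of the HAND2 values was the highest such value among the 7 genes. The end patterns most like that of SCG5, by the distance between within-list percentiles of end folds over the 5 lists, were those of SLC16A1 (9.04 percentile points), RPL7L1 (9.82) and PXMP4 (11.5). These were the nearest of 1321 genes that had end peaks in the same 4 libraries. CHGA and SCG5 shared this library pattern with 6.62% of all genes, and CHGB shared its pattern of both HAND2 libraries and TCF4 with 10%. A pattern pools both ends of a gene. At SCG5 the 4 libraries lay at the same site over the start, whereas at CHGA the MEIS2 replicate 1 peak lay at the other end.

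SCG3, which encodes a granin that holds chromogranin A at vesicle membranes, had a TCF4 end peak of 4.47-fold (3.45 to 5.70) and a HAND2 end peak in replicate 1 alone. That HAND2 peak had a fold of 2.19 (1.54 to 3.03) from 34 fragments, and 97.7% of the peaks of its list were stronger. SCG2, the precursor of the neuropeptide secretoneurin, had the MEIS2 replicate 2 peak of 7.93-fold (4.49 to 13.2), which rests on 13 fragments, and no end peak of HAND2 or TCF4.

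Of the convertases PCSK1 had the lowest TCF4 end fold of the 5 members with one, and PCSK2 had no end peak. PCSK1 had a TCF4 peak alone, 2.68-fold (2.11 to 3.36), with 73 fragments over a local background of 34 IgG fragments, the highest background under any of the members' peaks. Of the genes with a TCF4 end peak 92.8% had a higher fold, and the summit also lies within the annotated span of the neighbouring gene CAST. The lack of an end peak in all lists was a state that PCSK2 shared with 42.7% of all genes. TCF4 alone, the pattern of PCSK1, was found at 24.8% of all genes.

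**Figure D1:**
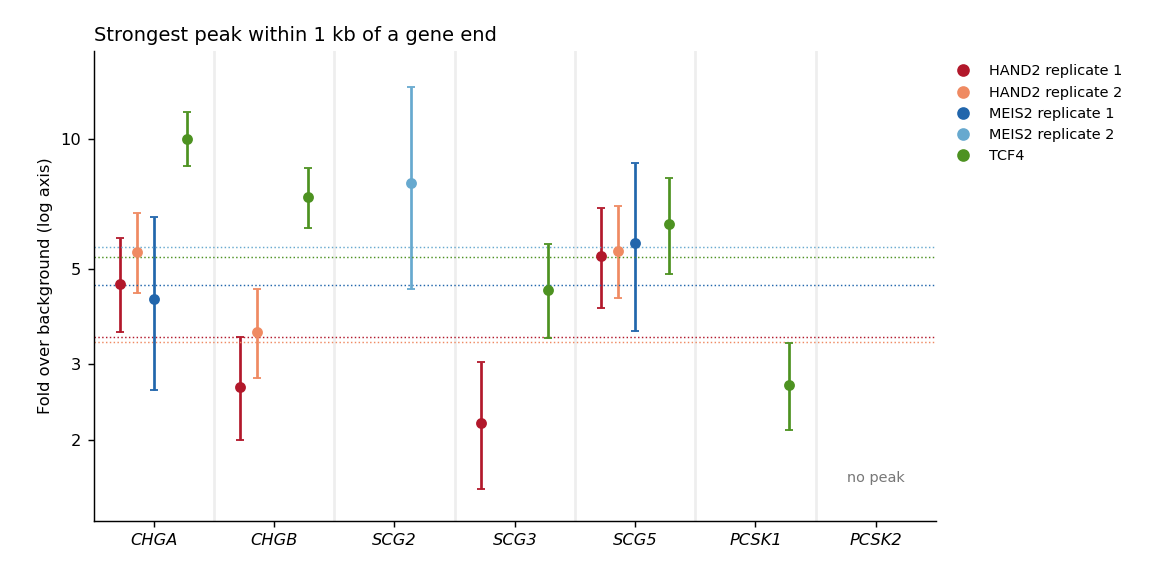
Fold over background, on a log axis, of the strongest peak within 1 kb of an end of each gene, by library; bars are 95% counting intervals and dotted lines the median of each library over all genes with an end peak. CHGA and SCG5 have points in 4 libraries, PCSK1 has 1 point at 2.68 and PCSK2 has none.

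Most of the peaks around these genes lay away from their ends, which take up a small part of the stretch searched. Summits inside a gene or within 50 kb of it were counted next, and 139 peaks in all were found for the 7 members, with 38 and 39 from HAND2 replicates 1 and 2, 16 and 19 from MEIS2 replicates 1 and 2, and 27 from TCF4. Merged over the libraries they formed 59 sites, of which SCG5 had 21, CHGA 15, SCG2 9, SCG3 8, CHGB 3, PCSK2 2 and PCSK1 1. Where a library had several peaks in a site, the fold given is that of its strongest. Of the 139 peaks 18 reached a gene end, a share that was not counted over all genes, and the pile-ups ran from 6 to 729 fragments. A single library supplied 27 of the sites, among them 9 seen in MEIS2 replicate 2 alone, and 1 site was shared by all 5 libraries.

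Regions of both HAND2 replicates were found in or near 5 of 7 members, where 55.8% of all genes had one, so their presence did not set the members apart. Their number did differ among the genes. CHGA had 10 and SCG5 had 9, and 3.68% and 4.57% of all genes had as many or more. SCG2 had 6 (10.1% of genes had as many or more), SCG3 had 4 (18.9%) and CHGB had 1 (55.8%), while PCSK1 and PCSK2 had none. The median was 4 regions over the 7 members and 1 over all genes. PCSK2 spans 258472 bp and has the longest window of the 7.

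TCF4 peaks were found in or near all 7 members, where 76.0% of all genes had one, and the median was 2 both over the members and over all genes. CHGA had 15 of the 27 peaks, and 5.54% of all genes had as many or more. SCG5 had 4, SCG3 had 3, SCG2 had 2, and CHGB, PCSK1 and PCSK2 had 1 each. Among these genes TCF4 peaks were therefore gathered at CHGA, and elsewhere their number was near that of an ordinary gene.

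MEIS2 regions of both replicates lay in or near 3 of 7 members, SCG2 with 3, SCG5 with 2 and SCG3 with 1, where 9.39% of all genes had one. For SCG2, 1.06% of all genes had as many or more, and for SCG5 2.65%. The replicates differed by gene. CHGA had 6 peaks in MEIS2 replicate 1 and 0 in replicate 2, whereas SCG5 had 4 in replicate 1 and 10 in replicate 2, a number that 0.941% of all genes reached.

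**Figure D2:**
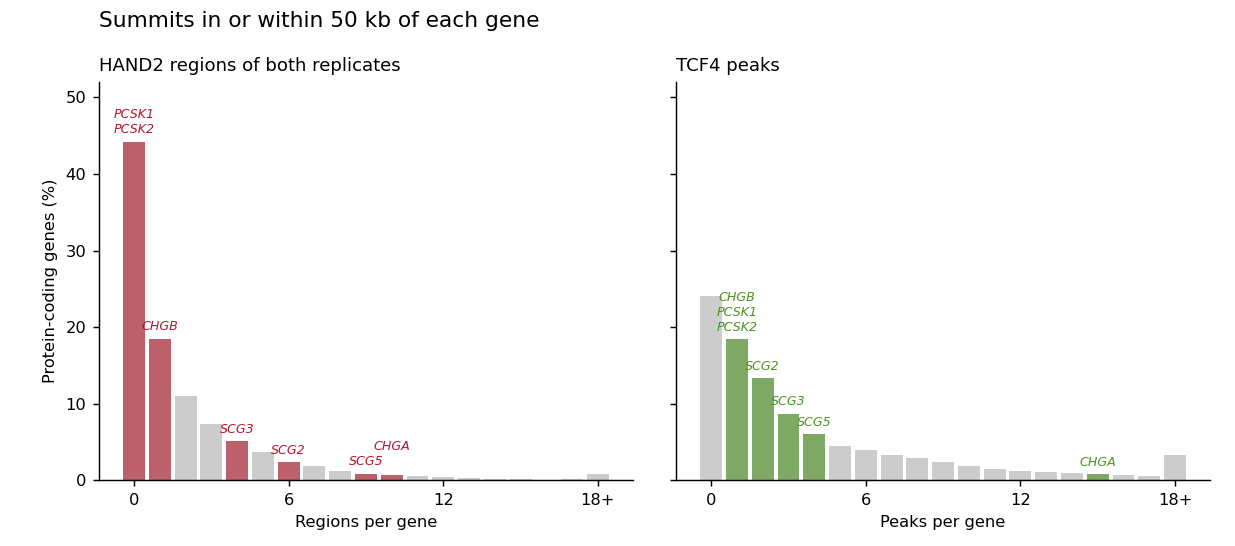
Percentage of all protein-coding genes (vertical axis) by the number of HAND2 regions of both replicates (left) and of TCF4 peaks (right) with a summit inside the gene or within 50 kb of it; bars that hold a member are coloured and named. CHGA, with 10 HAND2 regions and 15 TCF4 peaks, lies in the tail of both panels, and PCSK1 and PCSK2 lie in the bar of 0 on the left.

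The CHGA neighbourhood carried HAND2 and TCF4 peaks together. Of its 15 sites 14 had a TCF4 peak, and 8 of its 9 sites with a HAND2 region of both replicates had one too. The strongest site upstream of the gene, at chr14:92915792-92918703, had HAND2 folds of 18.7 (16.7 to 20.8) and 18.1 (16.3 to 20.0) from 316 and 388 fragments, a TCF4 fold of 38.4 (35.6 to 41.2) from 729 fragments, and a MEIS2 replicate 1 fold of 4.19 (2.79 to 6.06) from 26 fragments. Its summits lay 4.90 to 5.36 kb below the lower-coordinate end. In the TCF4 list 0.857% of peaks were stronger, and in the HAND2 lists 5.08% and 4.14% were.

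Further sites lay past the other end of CHGA, inside ITPK1, an inositol phosphate kinase gene that is the neighbour on that side. At chr14:92942650-92947044 the TCF4 fold was 45.5 (41.8 to 49.4) from 560 fragments, and the HAND2 folds were 8.41 and 9.83 with MEIS2 replicate 1 at 7.77. At chr14:92971737-92975450 the HAND2 folds were 19.5 (17.1 to 22.2) and 20.4 (18.1 to 22.9), TCF4 reached 40.7 (37.2 to 44.4) and MEIS2 replicate 1 reached 10.7. At that site the HAND2 and MEIS2 replicate 1 summits fell within 1 bp of each other, and the background came out at 14 IgG fragments in each of these lists and at 14.5 in TCF4. A site with its HAND2 replicate 1 summit 36.7 kb upstream of the gene had HAND2 folds of 15.8 and 8.31, TCF4 at 15.2 and MEIS2 replicate 1 at 7.19.

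Thus 5 of the 15 TCF4 peaks near CHGA, 33.3%, were among the strongest 10% of the TCF4 list, and so were 3 of 11 HAND2 peaks in replicate 1 and 2 of 13 in replicate 2. Of the 10 HAND2 regions near CHGA 1 lay in the gene, 6 lay in ITPK1 and 3 in no gene. A window of 50 kb holds neighbouring genes as well, and to which gene a site belongs was not tested. Within the HAND2 and TCF4 lists the peaks at the gene's own ends were weaker than those at the upstream site and at the ITPK1 sites given above, whereas in MEIS2 replicate 1 the end peak (4.25) and the upstream one (4.19) were alike.

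SCG5, which encodes the 7B2 chaperone of PCSK2, showed another arrangement, with its strongest sites inside the gene and without TCF4. Of its 9 HAND2 regions 6 had their summit within the gene. The gene table gives no exons, so exons and introns were not told apart, and a read-through gene, ARHGAP11A-SCG5, covers the same span. At chr15:32687437-32689001, 46.5 kb into the gene, the HAND2 folds were 36.8 (29.8 to 45.0) and 20.8 (15.9 to 26.9) and the MEIS2 folds 14.5 (9.22 to 21.8) and 27.8 (20.6 to 36.6). They rested on 93, 57, 21 and 48 fragments over the lowest backgrounds of these lists, 1.91 to 2.09 IgG fragments. HAND2 replicate 1 had 1.12% and MEIS2 replicate 2 0.865% of its peaks above this one. The HAND2 summits fell within 1 bp of each other.

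A site 28.6 kb into SCG5, at chr15:32670012-32670894, had HAND2 folds of 23.1 (17.6 to 29.7) and 26.2 (20.6 to 32.9) and MEIS2 folds of 9.88 (5.70 to 16.1) and 7.93 (4.49 to 13.2). The HAND2 summits were 3 bp apart with that of MEIS2 replicate 1 between them, whereas the MEIS2 replicate 2 summit lay aside, the 4 summits spanning 213 bp. A site 17.9 kb into the gene, at chr15:32658671-32660680, had HAND2 folds of 13.6 (11.0 to 16.8) and 20.5 (17.0 to 24.6), and MEIS2 replicate 2 had a fold of 5.61 there. None of these 3 sites held a TCF4 peak. Away from the start, the TCF4 peak inside the gene lay at chr15:32671553-32672738, with a fold of 10.3 (8.07 to 13.1), where the HAND2 folds, 4.46 and 5.21, were lower than at those 3 sites.

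The remaining TCF4 peaks of SCG5 were the one at its start, one 26.1 kb below it in ARHGAP11A with a fold of 3.45, and one 20.5 kb beyond its other end with a fold of 5.88. MEIS2 replicate 2 had 5 sites that no other library shared, with folds of 5 to 7.37. It also had a fold of 15.3 (10.2 to 22.2) at chr15:32682516-32685923, a site that HAND2 replicate 1 shared at 7.83-fold and replicate 2 did not. Both MEIS2 replicates thus had peaks at the sites 28.6 and 46.5 kb into the gene, and differed in how many further peaks they had.

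SCG2 had no HAND2 or MEIS2 region inside it, and all its sites lay in stretches with no annotated protein-coding gene. The nearest, chr2:223593744-223596466, had its HAND2 summits 2.72 and 2.85 kb below the lower-coordinate end. It had HAND2 folds of 14.6 (10.8 to 19.2) and 11.1 (7.91 to 15.1) and MEIS2 folds of 13.4 (8.52 to 20.2) and 7.93 (4.49 to 13.2). The pile-ups were 48 and 38 fragments for HAND2 and 21 and 13 for MEIS2. A site 47.5 kb below the same end, chr2:223548860-223550629, had HAND2 folds of 13.7 and 14 and MEIS2 folds of 8.56 and 13.0. Neither had a TCF4 peak.

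On the other side of SCG2, 11.0 kb beyond the higher-coordinate end, lay the site that all 5 libraries shared, chr2:223612778-223613752. Its folds were 7.34 and 7.70 in the HAND2 replicates, 4.03 and 2.97 in the MEIS2 replicates and 5.60 in TCF4, and the 5 summits spanned 226 bp. In MEIS2 replicate 2 this peak was near the threshold, with 14 fragments over 11 IgG fragments and 99% of the list stronger. A site 31.6 kb beyond the end had HAND2 folds of 11.9 and 14, with MEIS2 replicate 1 at 4.52 and TCF4 at 3.46.

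At SCG3 the strongest site lay 5.65 kb beyond the higher-coordinate end in the neighbouring gene LYSMD2, at chr15:51725810-51727979. The HAND2 folds were 26.1 (21.0 to 32.2) in replicate 1 and 7.91 (5.03 to 11.9) in replicate 2, from 87 and 21 fragments. The MEIS2 folds were 10.5 (6.19 to 17.0) and 38.0 (29.5 to 48.1), from 15 and 66 fragments, and 0.281% of the peaks of MEIS2 replicate 2 were stronger. The HAND2 replicate 2 summit lay 1052 bp from that of replicate 1, the widest gap among the HAND2 regions near the 7 genes. No TCF4 peak lay there.

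Further out, inside the tropomodulin gene TMOD2, SCG3 had a site 37.9 kb beyond its end with HAND2 folds of 12.4 and 7.13 and a MEIS2 replicate 2 fold of 10.6. Another, 38.9 kb beyond it, had HAND2 folds of 9.10 and 7.95. Inside SCG3 itself HAND2 had 1 region of both replicates, with folds of 5.48 and 3.95 from 13 and 10 fragments. None of the 4 SCG3 sites with a HAND2 region of both replicates held a TCF4 peak, and the 3 TCF4 peaks, with folds of 2.46 to 4.56, lay elsewhere.

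CHGB had nothing beyond its end but a pair of MEIS2 replicate 2 peaks, 5.20-fold from 9 fragments 45.9 kb below the gene and 3.83-fold from 6 fragments inside it. PCSK1 had no peak besides the TCF4 one, whose summit lay 452 bp inside the outer start. PCSK2 had a HAND2 peak in replicate 1 alone, 4.60-fold (2.70 to 7.40) from 15 fragments, 10.4 kb short of its higher-coordinate end, and a TCF4 peak of 3.05-fold (2.32 to 3.93) 46.6 kb beyond that end in the lens gene BFSP1. Neither convertase had a MEIS2 peak in either list.

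**Figure D3:**
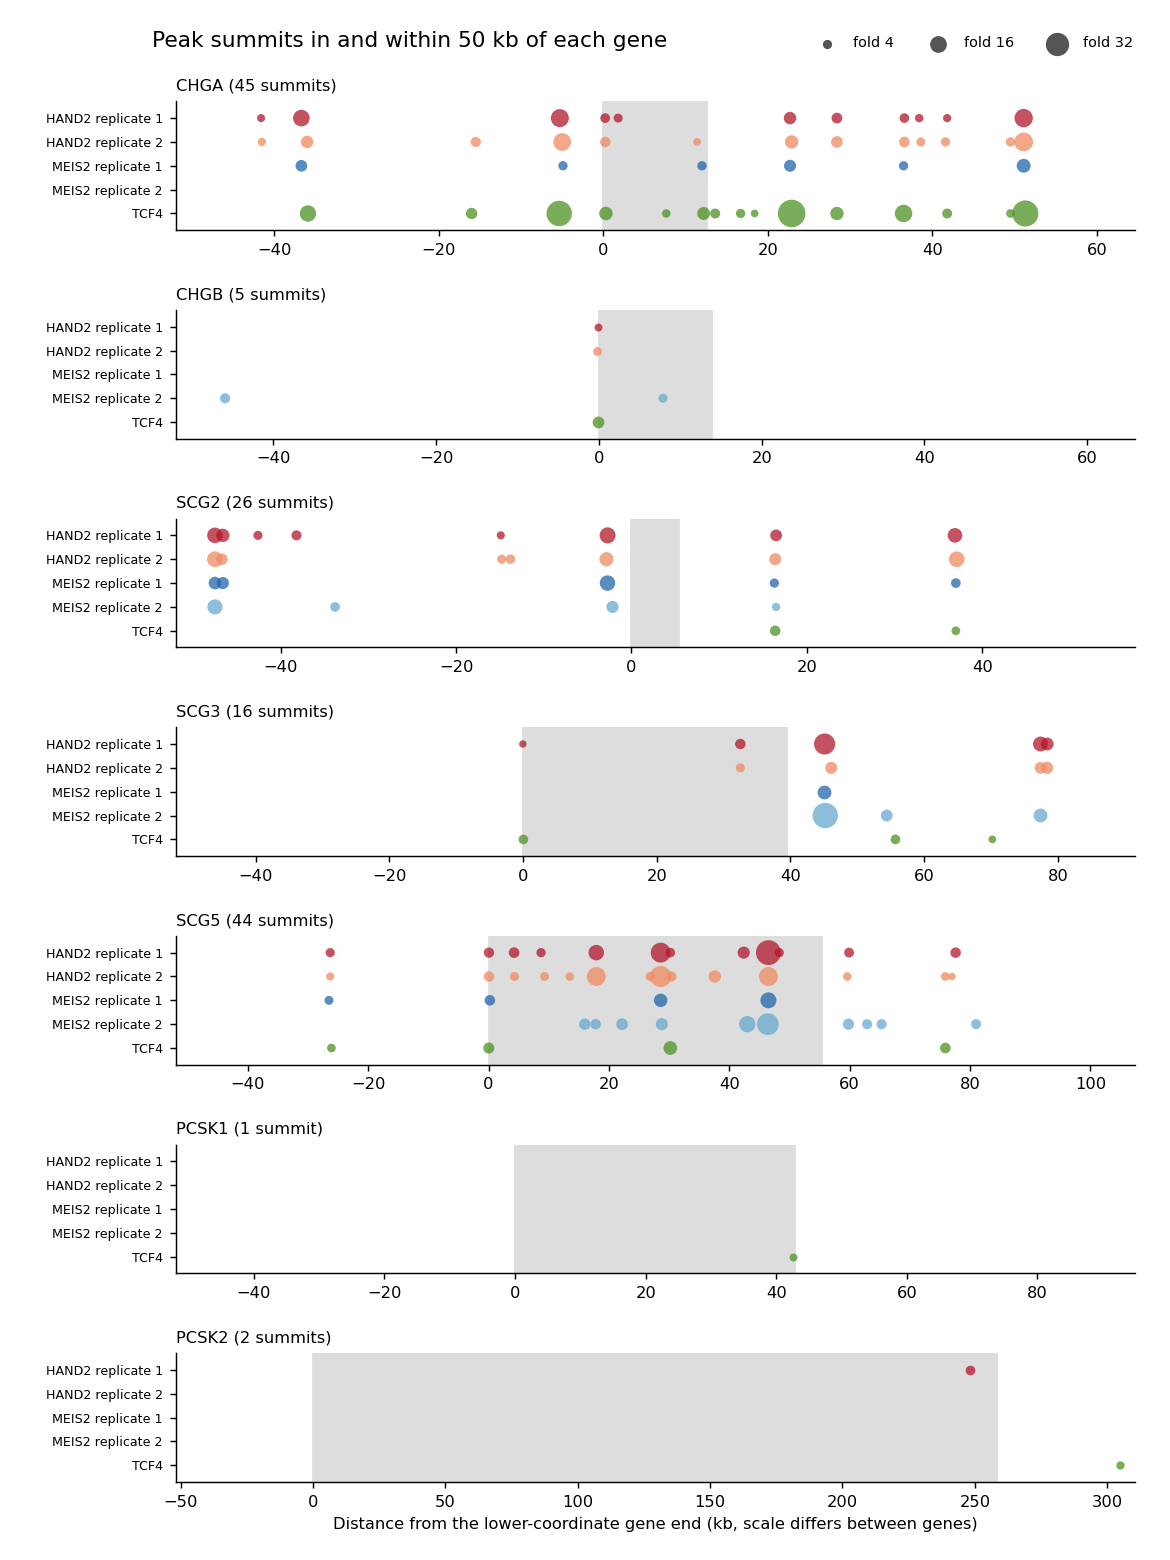
Summits of the 5 peak lists along each gene and 50 kb on either side, in kb from the lower-coordinate gene end; grey spans the gene and the area of a dot grows with the fold. TCF4 dots crowd around CHGA, HAND2 and MEIS2 dots lie inside SCG5, and PCSK1 and PCSK2 have 1 and 2 summits.

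Across the members, 16 of the 30 HAND2 regions, 53.3%, overlapped a TCF4 peak, and of all 23304 HAND2 regions 53.6% did. The genes differed in this, although the difference was not tested. Counted by site, where neighbouring regions can merge, 8 of 9 HAND2 sites of CHGA and the 1 of CHGB held a TCF4 peak, against 4 of 9 at SCG5, 2 of 5 at SCG2 and 0 of 4 at SCG3. The local background under the HAND2 replicate 1 peaks of these sites also differed by gene. It ran from 3.07 to 20.2 IgG fragments at CHGA and was 24 at CHGB. It ran from 1.97 to 17 at SCG5, 1.97 to 11 at SCG2 and 1.97 to 5 at SCG3. The median background was 7 and 8 in the HAND2 lists and 14 in the TCF4 list. Whether background shapes the difference between genes was not tested. Regions of both MEIS2 replicates overlapped 7 of the 30 HAND2 regions, 23.3%, against 8.72% of all HAND2 regions, and these 7 lay at SCG2, SCG3 and SCG5. In the other direction 6 of 6 MEIS2 regions near the members overlapped a HAND2 region of both replicates, against 86.4% of all MEIS2 regions, and 16 of 27 TCF4 peaks did, 59.3% against 41.5% of all TCF4 peaks. These shares were not tested, because regions around 1 gene are not independent and the MEIS2 count rests on 6 regions.

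Of the 6 sites with MEIS2 in both replicates 5 had no TCF4 peak, and the other was the SCG2 site with all 5 libraries. At each of those 5 the strongest HAND2 peak of either replicate had a fold of at least 7.91. The share of all MEIS2 regions without a TCF4 peak was not counted. The 5 of 6 therefore has no background and is not read as a trait of these genes. The distance between the HAND2 summits of the replicates had a median of 65.5 bp over the 30 regions near the members and of 48 bp over all HAND2 regions, and 12 of the 30 gaps were within 50 bp, against 51.3% of all. By position, 8 of the 30 HAND2 regions lay in the member itself, 11 in another gene and 11 in no gene, and the 27 TCF4 peaks divided into 7, 12 and 8 in the same classes.

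**Figure D4:**
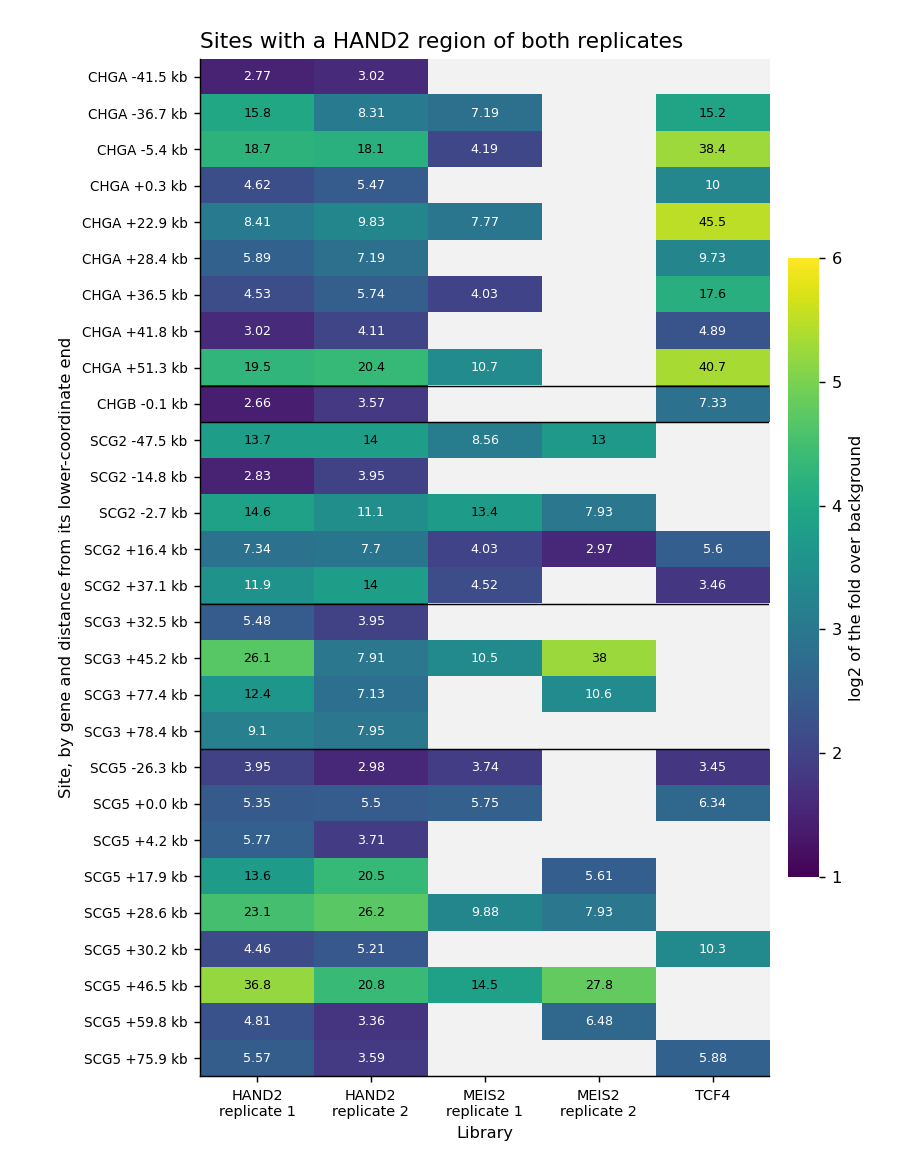
Fold over background in each library at the 28 sites near CHGA, CHGB, SCG2, SCG3 and SCG5 that hold a HAND2 region of both replicates, with colour as log2 of the fold and pale cells where a library has no peak. The folds rank peaks within a column; the TCF4 column is filled at 8 of 9 CHGA sites and empty at all SCG3 sites.

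Other genes of the regulated secretory pathway gave a background for these values. Over all genes 19.1% had a HAND2 region of both replicates at an end, and 53.9% had a TCF4 peak there. Among other granin-like genes VGF, a secreted neuropeptide precursor, had HAND2 end folds of 5.52 and 13.9 and a TCF4 end fold of 9.45, PCSK1N, an inhibitor of PCSK1, had a TCF4 end fold of 6.44, and GNAS had no end peak. Of 7 other proprotein convertases 0 had a HAND2 region of both replicates at an end and 5 had a TCF4 peak, the highest at PCSK4 (10.4), PCSK7 (7.15) and MBTPS1 (4.59). The convertases PCSK1 and PCSK2 likewise had no HAND2 region. Of 6 genes that trim or modify peptides 0 had a HAND2 region of both replicates and 3 a TCF4 peak, with folds of 8.52 at CPE, the carboxypeptidase that removes basic residues after the convertases have cut, 4.65 at TPST2 and 3.18 at PAM, the amidating enzyme.

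Among 20 neuropeptide precursors 3 had a HAND2 region of both replicates at an end, the adrenomedullin gene ADM with folds of 3.96 and 3.10, the galanin gene GAL with 2.75 and 3.16, and the neuromedin B gene NMB with 3.11 and 2.21, and 6 had a TCF4 peak, the highest at ADM (15.8), GAL (10.8) and NPY (8.78). Among 14 genes of dense-core vesicle assembly and release 2 had a HAND2 region, the calcium sensor SYT1 with 13.3 and 5.53 and the vesicle membrane protein PTPRN with 5.16 and 6.03, and 8 had a TCF4 peak, the highest at PTPRN2 (17.0), PTPRN (10.1) and CADPS (9.07). No gene of these 5 lists had a MEIS2 region of both replicates at an end, beside 0.946% of all genes. MEIS2 replicate 1 alone had an end peak at 2 of the 6 trimming enzymes, 2 of the 20 precursors and 3 of the 14 vesicle genes, and at none of the granin-like genes and other convertases. Over all genes 11.5% had a replicate 1 end peak and 2.18% had a replicate 2 end peak. MEIS2 replicate 2 alone had 1, at SYT1, which had MEIS2 end folds of 4.60 in replicate 1 and 6.66 in replicate 2 from peaks that did not form a shared region at an end. HAND2 at a gene end was thus found at 3 of 7 members, 1 of 3 granin-like genes, 0 of 7 other convertases, 0 of 6 trimming enzymes, 3 of 20 precursors and 2 of 14 vesicle genes, beside 19.1% of all genes. TCF4 end peaks were found at 5 of 7 members, 2 of 3 granin-like genes and 5 of 7 other convertases. They were found at 3 of 6 trimming enzymes, 6 of 20 precursors and 8 of 14 vesicle genes, beside 53.9% of all genes. These list counts were not tested. In or within 50 kb of a gene, the median number of HAND2 regions was 4 for the granin-like genes and 1 for the other convertases. It was 1.5 for the trimming enzymes, 0 for the precursors and 2.5 for the vesicle genes. Over the members it was 4 and over all genes 1. Large numbers were not particular to CHGA and SCG5. VGF had 9 HAND2 regions and 9 TCF4 peaks, GAL 9 and 10, and PTPRN2 22 and 36, in windows that differ in length. Peaks mark where the fragments of a library exceeded the local background. They do not by themselves show that the factor was bound there or that the gene was expressed, and expression was not analysed here.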

How the data were processed

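Peak lists of 5 CUT&Tag libraries were used, 1 deposited list per library with no pooling of replicates. The submitters' processing notes name hg38, MACS3 3.0.0a6, bcl2fastq 2.17 and Bowtie2, whose version is not given in the sources used here. The deposited columns used were each peak's position, the fold (a ratio of summit pile-up to local background) and the p and q given as −log10 by the authors' caller. The deposited score was not used, nor was a column the authors added in some lists, the fold divided by the peak's width. No deposited peak had a −log10 q under 2.00. Chromosomes 1 to 22 and X were used, which dropped no HAND2 peak, 3 and 5 peaks of MEIS2 replicates 1 and 2, and 7 of TCF4.

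The whole pile-up that gives both the deposited fold and p was recovered for 100% of peaks, within a relative tolerance of 5e-05, after a check on simulated peaks. From it came the counting intervals and the background, in units of 1 scaled control fragment, called IgG fragments. That the control was the IgG library is inferred, and the lists hold no read totals. By this unit the libraries had 0.789, 0.932, 0.248, 0.368 and 0.784 times the depth of the control (HAND2, MEIS2 and TCF4 in turn). Of the backgrounds above the lowest, 45.2% were near whole multiples of the unit in MEIS2 replicate 2. In the other lists 67.8% to 70.9% were. Gene positions and promoter sequences came from RefSeq tables of GRCh38.p14. Replicate regions needed an overlap of at least 1 bp. No test was run: counts stand beside the same count over all genes, since the members and the gene lists were chosen with earlier results of these data known. All 7 members were named, and from each list at most 3 genes by lower HAND2 end fold, at most 3 by TCF4 end fold and any with a MEIS2 region of both replicates. GNAS, CD79A, DBH and TH were named beyond this rule, after their values were seen. The count over the list of adrenergic genes is not reported here. Analyses used Python 3.11.15 with numpy 2.4.6, pandas 2.3.3, scipy 1.17.1 and matplotlib 3.10.9.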

Additional observations from a re-analysis of the deposited data

How the results depend on the processing

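Of 45 alternative values of the 6 counts, 33 stayed within 1.5 times the main count and 12 did not. Keeping the 5000 peaks of highest −log10 q per library moved 5 counts, since it leaves fewer peaks. HAND2 regions near the members became 6 where there were 30, TCF4 peaks near them 6 where there were 27, members with HAND2 at an end 0 where there were 3, with MEIS2 of both replicates at an end 0 where there was 1, and with TCF4 at an end 1, CHGA, where there were 5. With a distance of 25 kb the HAND2 regions numbered 19. With a reciprocal overlap of 50% the MEIS2 regions near the members numbered 3 where there were 6. The members with HAND2 at an end numbered 2, since CHGA lost its call, and the SCG2 end call of MEIS2 was lost (0). That call was also absent when transcription starts alone were used (0), where CHGB and SCG2 were not matched. Such a setting could not return either gene whatever its peaks, so this loss, though counted among the 12, says nothing of SCG2. Leaving out a MEIS2 replicate gave 16 to 19 peaks near the members, and 1 to 2 members with an end peak. Leaving out a HAND2 replicate gave 38 to 39 peaks and 3 to 4 members. Dropping summits over 30 or more IgG fragments cost the TCF4 end peak of PCSK1. No paired analysis was possible because the results come from no test. The MEIS2 libraries had the lowest depths relative to the control, 0.248 in replicate 1 and 0.368 in replicate 2. Their peaks near the members rest on as few as 6 fragments. Whether a missing MEIS2 peak reflects depth was not tested.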
